A study of Homo sapiens with 2 samples.

Results

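Condensins are ring-shaped complexes that fold and stiffen chromosomes for mitosis, and topoisomerase II passes 1 DNA duplex through another so that sister chromatids can be disentangled. Both condensins of human cells share a pair of SMC ATPases, SMC2 and SMC4. Condensin I adds the kleisin NCAPH and the HEAT-repeat subunits NCAPD2 and NCAPG, and reaches chromosomes after the nuclear envelope breaks down. Condensin II adds NCAPH2, NCAPD3 and NCAPG2 and is nuclear through interphase. Of the isoforms of topoisomerase II, TOP2A is made mainly by proliferating cells, whereas TOP2B is also made by resting cells. These 10 genes, 8 for condensin subunits and 2 for topoisomerase II, were taken by name among the 21743 genes that could be named on the arrays. They were measured by 33 spots carrying 15 different probes.

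RNA came from MRC-5, a human cell line of fibroblasts grown from fetal lung. One culture had received control siRNA, and the other siRNA against POSTN, the gene of the matricellular protein periostin, at 10 nM for 48 h. Neither the siRNA amount nor the time of treatment of the control culture on the arrays was given in the sources used here. Each condition had 1 culture and 1 single-colour array, so no test between conditions was possible, no p-value is given, and an effect of periostin cannot be told apart from any other difference between the cultures. A knockdown lowers a transcript without removing the gene, and RNA of a whole culture cannot separate fewer cycling cells from less RNA per cell.

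Signals are background-subtracted spot intensities, scaled so that both arrays had the same 75th percentile, and log2 ratios are periostin siRNA over control siRNA. A signal counts as measured where the scanner software called it well above background, which it did for 58.0% of the 58717 spots with control siRNA and 58.9% with periostin siRNA. An error is the SD between spots for probes printed 10 times and, for those printed once, the error propagated by the scanner software, and neither covers the spread between cultures. For bright probes the propagated error is the larger, so errors of the different kinds cannot be set against each other. POSTN itself read 2638 in the control culture and 280 after its own siRNA, for a log2 ratio of -3.24 ± 0.20 (propagated error, 1 spot). All 8 fibroblast markers looked at were well above background on both arrays, with signals that summed to 351191 in the control culture and 316250 in the other. Of 3 epithelial markers, 2 were well above background on both arrays, while CDH1 was at background. The signals of all 3 summed to 788 in the control culture and 1418 in the other. Most of this came from KRT8, at 751 and 1281 by its brightest probe, whose 3 probes had log2 ratios from 0.08 to 0.77, and EPCAM read 34.6 and 135. Of 3 endothelial markers, 2 were well above background on both arrays, with PECAM1 at background on both, and the summed signal of all 3 was 124 and 128. For the 3 immune markers the sum was 1553 and 2486, nearly all of it from CD68, with 2 of them well above background with control siRNA and 3 with periostin siRNA. The part of such cells in the results was not tested.

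Of the 10 genes, 9 had a ratio, and 8 of the 9 were below 0, against 45.5% of all named genes with a ratio. The genes were chosen with earlier results of these data known, so the counts only describe them. TOP2A and NCAPG were lower with periostin siRNA by more than 3-fold, the fold used in the study, which is 2 of 9 genes against 2.75% of the 16052 named genes with a ratio. By more than 2-fold, 4 of the 9 were lower, SMC2 and NCAPD3 besides those, against 6.42% of all named genes. With normexp, an alternative background correction that adds an offset to both arrays, only TOP2A stayed past 2-fold by its brightest probe. SMC2 was at -0.94, NCAPD3 at -0.77 and the bound of NCAPG at -0.69. The other SMC2 probe, at -1.15 with normexp, was past 2-fold. NCAPD3 (-0.98) also missed 2-fold when the arrays were left unscaled. No member was higher by more than 3-fold, against 3.37% of all named genes. The median log2 ratio was -0.82 over the 9 and 0.06 over all 16052. The 10th gene, NCAPH, was not well above background on either array and has no ratio. NCAPG has a ratio only because it was well above background with control siRNA. Its ratio is a bound, kept only where it is below 0, so its sign says nothing further. The plot of signals shows every probe on both arrays.

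**Figure D1:**
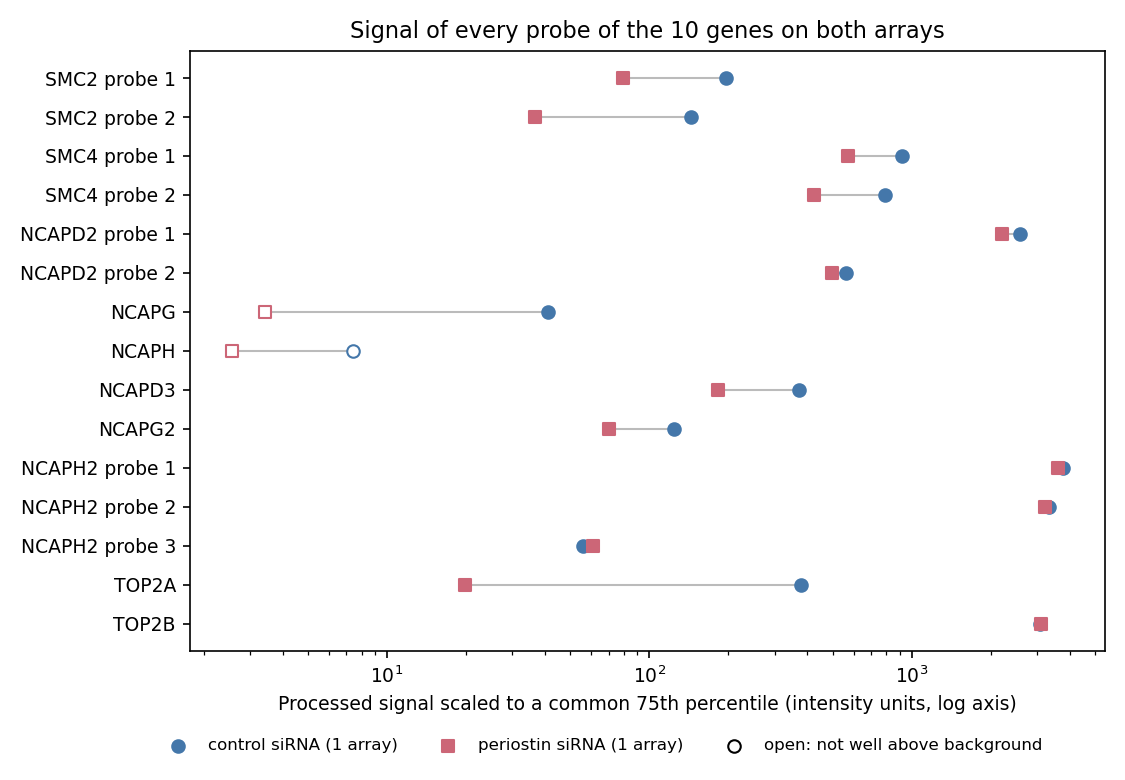
Scaled signal (log axis) of the 15 probes of the condensin and topoisomerase II genes with control siRNA (circles) and periostin siRNA (squares), 1 array each, with open symbols where the signal was not well above background. TOP2A and NCAPG have the widest gaps among the probes measured with control siRNA, whereas the symbols of TOP2B and NCAPH2 nearly coincide, and signals of different probes cannot be set against each other.

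Both topoisomerase II isoforms were measured by a probe printed 10 times, and their ratios lay far apart. The 10 TOP2A spots lay between 357 and 411, with a median of 373, on the control siRNA array. On the periostin siRNA array they lay between 14.7 and 23.4, with a median of 20.7. Every spot was thus far lower with periostin siRNA, and the ranges did not overlap, although spots of 1 array share the RNA of 1 culture. The log2 ratio of TOP2A was -4.24 ± 0.25 (SD over 10 spots), a 19.0-fold difference, and ranged from -4.71 to -3.96 over the spots. Of the 16052 named genes, 22 had a ratio as low as this, TOP2A included. On the control array 2 TOP2A spots carried an outlier flag, and these were the 2 brightest of the probe there.

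TOP2B spots lay between 2857 and 3289 with control siRNA, with a median of 3076. They lay between 3007 and 3320 with periostin siRNA, with a median of 3089. These ranges overlapped over most of their length, and the log2 ratio was 0.01 ± 0.04 (SD over 10 spots), a sign that turned when the arrays were scaled on their medians (-0.11). TOP2A minus TOP2B gave a log2 difference of -4.26 ± 0.25 (both spot SDs combined). TOP2A on the periostin siRNA array was within 3-fold of the lowest signal called well above background there, 7.77, so the size of its difference depends on the background. Under normexp, a background correction that fits the background as a distribution and then raises all signals by an offset of 50, the TOP2A ratio was -2.46 and that of TOP2B 0.01.

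**Figure D2:**
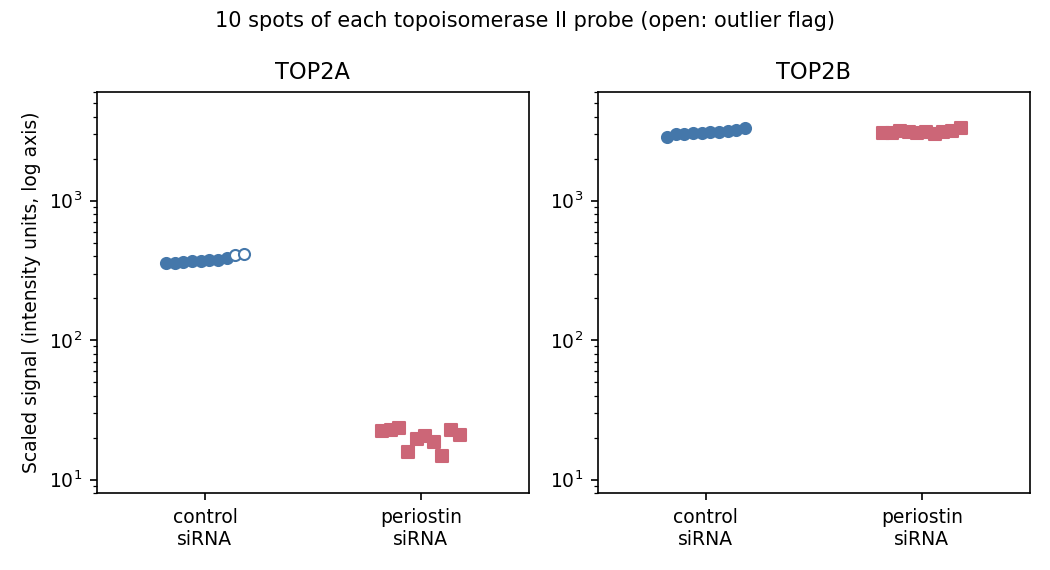
Scaled signal (log axis) of the 10 spots of the TOP2A probe and the 10 spots of the TOP2B probe on each array, open where a spot carried an outlier flag. All TOP2A spots lie at 357 or above with control siRNA and at 23.4 or below with periostin siRNA, and the TOP2B spots lie between 2857 and 3320 on both.

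The promoters of both isoforms are shown because a pair of genes with the same enzyme activity differed this far. Many genes of the late cell cycle carry a cell cycle homology region (CHR), a short element bound by the MuvB complexes, and CCAAT boxes, bound by NF-Y. The letters searched, on both strands, were TTTGAA and TTCGAA for the CHR and CCAAT for the CCAAT box, and TTCCCGC and TTGGCGC for E2F sites. Sequences are the 250 bases before the gene start, from RefSeq (GRCh38.p14), 5′ to 3′ on the strand of the gene, with every match in capitals. None of the matches overlapped another. TOP2A is shown from chr17:40417897-40418146 on the minus strand, and TOP2B from chr3:25664908-25665157 on the minus strand, before the outer of its 2 listed starts.
TOP2A: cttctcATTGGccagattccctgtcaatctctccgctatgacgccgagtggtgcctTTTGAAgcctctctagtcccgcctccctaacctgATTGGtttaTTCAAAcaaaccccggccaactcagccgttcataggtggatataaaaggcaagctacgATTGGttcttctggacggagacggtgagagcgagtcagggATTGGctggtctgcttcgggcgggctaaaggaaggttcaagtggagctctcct
TOP2B: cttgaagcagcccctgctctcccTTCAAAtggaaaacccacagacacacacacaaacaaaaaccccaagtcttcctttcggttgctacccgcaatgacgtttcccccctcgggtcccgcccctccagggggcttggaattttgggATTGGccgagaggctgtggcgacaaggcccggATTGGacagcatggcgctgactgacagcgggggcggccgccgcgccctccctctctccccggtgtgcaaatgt
TOP2A held 4 CCAAT boxes, all on the reverse strand and starting 244, 160, 93 and 53 bases before the gene start, and 2 CHR matches, at 194 and 151 bases. TOP2B held 2 CCAAT boxes on the reverse strand, at 105 and 73 bases, and 1 CHR match, at 227 bases. The other TOP2B start had no match to any of these letters. Among the 35116 promoters of the RefSeq table, 32.0% held a CCAAT box in the same window, 9.53% held at least 2, 14.3% held a CHR match and 5.05% held both kinds. A match of letters is a description and does not show that a factor binds there.

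The SMC ATPases, which both condensins share, were lower with periostin siRNA by each of their probes. SMC2, which forms the ring with SMC4, was measured by 2 probes printed once. The brighter read 196 with control siRNA against 79.0 with periostin siRNA, a log2 ratio of -1.31 ± 0.21 (propagated error, 1 spot). The other had 144 and 36.8, a log2 ratio of -1.96 ± 0.21, which is past 3-fold. The 2 probes name the same transcript and differ in size by more than either error. SMC4 had 918 and 573 by its brighter probe, a log2 ratio of -0.68 ± 0.20, and 788 and 424 by the other, -0.89 ± 0.20. Among 100 probes printed 10 times and of like brightness, the SD between spots was 0.07 for either SMC4 probe, and 0.14 and 0.19 for the SMC2 probes. By the brighter probes the SMC2 ratio lay below that of SMC4 by a log2 difference of -0.63 ± 0.29 (propagated errors combined).

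Of the 3 subunits particular to condensin I, NCAPD2 and NCAPG went far apart and NCAPH could not be measured. NCAPD2, a HEAT-repeat subunit, had signals of 2592 with control siRNA and 2205 with periostin siRNA by its brighter probe. The log2 ratio was -0.23 ± 0.20 (propagated error, 1 spot). Its other probe had 563 and 494, a log2 ratio of -0.19 ± 0.20, so that the first probe lay just outside its propagated error of 0 and the second within it. Among 100 probes printed 10 times and of like brightness, the SD between spots was smaller, 0.06 and 0.07 for these probes. NCAPG, the other HEAT-repeat subunit, had a signal of 40.9 with control siRNA and 3.42 with periostin siRNA. The latter was not well above background, and set against the lowest signal called well above background there, NCAPG was at least 5.27-fold lower. This rests on 1 dim spot with no outlier flag, and with the normexp correction the bound was a log2 ratio of -0.69, no longer past 3-fold. NCAPH, the kleisin that ties the SMC heads together, had 7.40 and 2.57 on its only spot, not well above background on either array, so that nothing can be said on its level.

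The promoters of NCAPG and NCAPD2 are given for the same reason as above, since these HEAT-repeat subunits of 1 complex differed in ratio. NCAPG is shown from chr4:17810729-17810978 and NCAPD2 from chr12:6493852-6494101, both on the plus strand, with CHR, CCAAT and E2F matches in capitals.
NCAPG: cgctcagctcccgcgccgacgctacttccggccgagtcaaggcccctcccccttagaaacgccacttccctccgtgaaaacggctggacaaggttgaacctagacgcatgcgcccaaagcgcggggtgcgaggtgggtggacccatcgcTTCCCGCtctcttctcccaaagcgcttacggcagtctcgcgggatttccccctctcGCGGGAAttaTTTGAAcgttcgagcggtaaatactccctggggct
NCAPD2: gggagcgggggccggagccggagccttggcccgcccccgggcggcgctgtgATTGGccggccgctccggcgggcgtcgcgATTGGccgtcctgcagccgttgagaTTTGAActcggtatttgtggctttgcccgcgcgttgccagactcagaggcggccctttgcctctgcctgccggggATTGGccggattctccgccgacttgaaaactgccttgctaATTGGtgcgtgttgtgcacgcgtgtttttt
NCAPG held 1 CHR match, 35 bases before the gene start, and 2 E2F matches, at 101 and 45 bases, but no CCAAT box. NCAPD2 held 1 CHR match at 145 bases and 4 CCAAT boxes on the reverse strand, at 199, 170, 70 and 30 bases, and no E2F match. NCAPD2 and TOP2A held the same number of CCAAT boxes, and whether promoter letters go with the ratios was not tested. The table held 13 starts for 9 of the 10 genes, all but NCAPH2. A CCAAT box lay before 5 of the 13 starts, a CHR match before 5 and an E2F match before 2. Over all promoters in the table the shares were 32.0%, 14.3% and 7.81%, in that order. NCAPH held a CCAAT box, NCAPD3 CCAAT boxes and an E2F match, SMC4 a CHR match, and SMC2 and NCAPG2 none of these letters.

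Of the condensin II subunits all 3 could be measured. NCAPD3, its D-type HEAT-repeat subunit, read 371 with control siRNA against 183 with periostin siRNA, a log2 ratio of -1.02 ± 0.20 (propagated error, 1 spot). NCAPG2, its G-type counterpart, had 124 and 70.1, a log2 ratio of -0.82 ± 0.21. Both lay below 0 by more than their error, with 6.21% of the named genes at or below the ratio of NCAPD3 and 8.54% at or below that of NCAPG2. NCAPH2, the kleisin of condensin II, was bright by 2 of its 3 probes, at 3773 and 3601 by the first and at 3326 and 3205 by the second. Their log2 ratios, -0.07 ± 0.20 and -0.05 ± 0.20, lay within the error of 0. The third NCAPH2 probe, named through another transcript, was dim, at 55.7 and 60.9, with a log2 ratio of 0.13 ± 0.21.

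**Figure D3:**
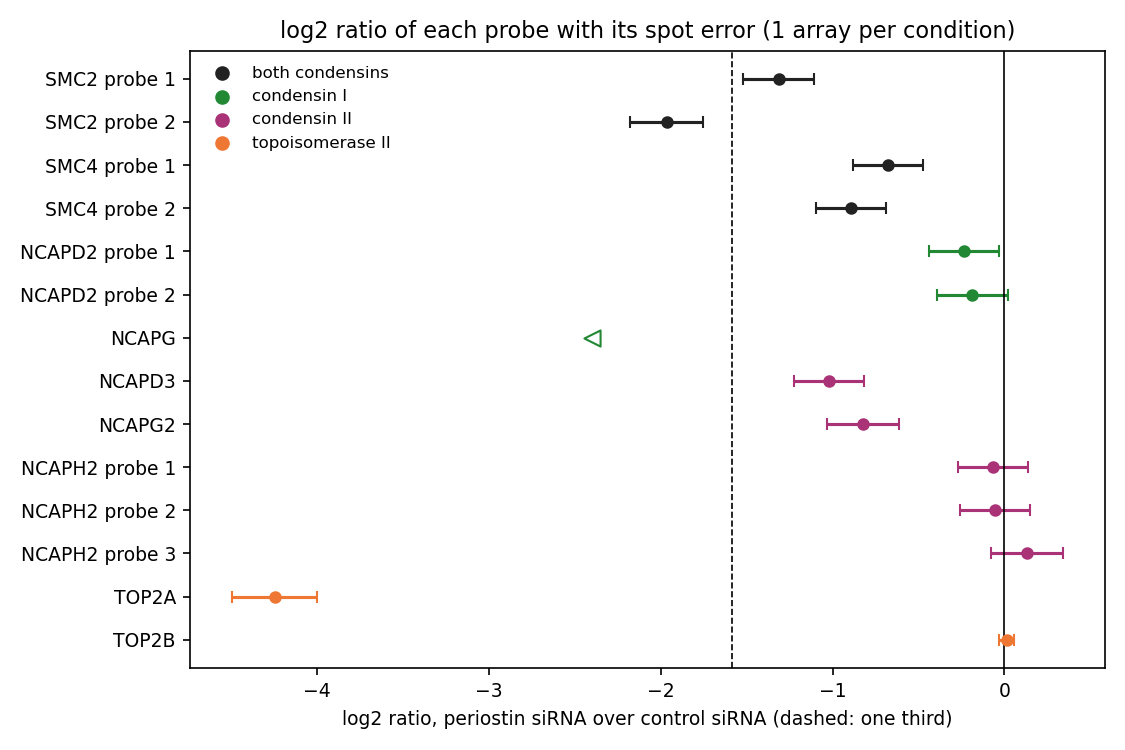
log2 ratio of periostin siRNA over control siRNA for the 14 probes with a ratio, grouped by complex, with bars for the SD over 10 spots (TOP2A, TOP2B) or the propagated error of 1 spot (others). The arrowhead of NCAPG at -2.40 is a bound, the dashed line marks a 3-fold difference, and the probes of NCAPD2, NCAPH2 and TOP2B lie nearest to 0.

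Set side by side, the complexes were not ordered 1 way. For the D subunits the condensin II member was the lower in ratio, with NCAPD2 above NCAPD3 by a log2 difference of 0.79 ± 0.29 (propagated errors combined). For the G subunits the condensin I member was the lower, since NCAPG was at or below -2.40 and NCAPG2 at -0.82. For the kleisins no comparison was possible. The median log2 ratio of the subunits particular to condensin I was -1.31, over 2 genes of which 1 is a bound, and that of condensin II was -0.82 over 3 genes. The order of these medians rested on the NCAPG spot. Without it condensin I was at -0.23. Under the normexp correction the medians were -0.44 and -0.44, with NCAPG again a bound. All 7 condensin genes with a ratio were below 0, against 45.5% of all named genes. NCAPG counts there by a bound, which is kept only where it is below 0. NCAPH2, at -0.07 ± 0.20, lay within its error of 0.

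A list of 13 mitotic kinases, condensin antagonists and other chromosome and spindle proteins was described next, not all of which act on condensin itself. All but the kinase PLK1 could be named on the arrays. Of these 12 genes 9 were below 0, TTK among them by a bound, against 45.5% of all named genes. By more than 3-fold 7 were lower (against 2.75% of all named genes), while none was higher by as much. The list was chosen with earlier results of these data known, so this count only describes it. The median log2 ratio was -1.82. The kinase CDK1, which phosphorylates condensin subunits at mitotic entry, had signals of 366 and 18.6 and a log2 ratio of -4.30 ± 0.16 (SD over 10 spots). Its partner cyclin CCNB1 had -2.98 ± 0.08 (SD over 10 spots). AURKB, a kinase needed for loading of condensin I, had -1.62 ± 0.23 (propagated error, 1 spot), past 3-fold in 8 of 10 settings, and TTK, another mitotic kinase, was at least 11.2-fold lower. KIF4A, a chromosome-bound kinesin that works with condensin I on the chromosome axis, had -4.34 ± 0.30. MKI67, which coats mitotic chromosomes, had -2.03 ± 0.22 and NUSAP1, a microtubule-binding protein of the spindle near chromatin, -2.93 ± 0.21.

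The remaining genes of that list had smaller differences. SET, which antagonizes phosphatase 2A, had -0.57 ± 0.20 by its brightest probe, and its 3 probes lay between -0.88 and -0.57. The catalytic subunits of casein kinase 2, which restrains condensin in interphase, had 0.13 ± 0.20 for CSNK2A1 and 0.35 ± 0.20 for CSNK2A2. AKAP8, a chromatin anchor of condensin, had -0.23 ± 0.20. MCPH1, an inhibitor of condensin II, had 0.72 ± 0.20 by its brighter probe and -0.62 by the other, so its direction is not settled. With the normexp correction 4 of the 12 stayed past 3-fold, namely CDK1 (-2.39), CCNB1 (-2.66), KIF4A (-2.08) and NUSAP1 (-1.98). The other 3 did not, with the bound of TTK at -1.08, MKI67 at -1.04 and AURKB at -0.75.

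By their brightest probes the other SMC genes had smaller differences than SMC2 and SMC4. Of 6 listed, 5 could be measured, and the median log2 ratio was -0.25. None was past 3-fold, against 2.75% of all named genes lower and 3.37% higher, which for so few genes does not set them apart. The cohesin ATPases had -0.25 ± 0.20 for SMC1A and -0.35 ± 0.20 for SMC3. In the SMC5/6 complex, SMC6 had -0.23 ± 0.08 (SD over 10 spots) and SMC5 0.03 ± 0.22, a sign that turned when scaled on the median. SMCHD1, a chromatin silencing protein, had -0.36 ± 0.20 by its brightest probe. Its 3 probes lay between -0.58 and -0.36, the lowest within the error of SMC4 (-0.68 ± 0.20). SMC1B, the meiotic cohesin subunit, was not well above background on either array.

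Of the other topoisomerases and the enzymes that clear stalled topoisomerases from DNA, 6 of 6 were measured, and the median log2 ratio was -0.18. None was past 3-fold, against 2.75% of all named genes lower and 3.37% higher, which for so few genes does not set them apart. TOP1, which relaxes supercoils by nicking 1 strand, had signals of 896 and 496 and a log2 ratio of -0.85 ± 0.20 (propagated error, 1 spot). TDP2, which removes topoisomerase II from DNA ends, had 5219 and 2914, a log2 ratio of -0.84 ± 0.20. TOP1MT, the mitochondrial enzyme, had -0.17 ± 0.20, TDP1, which clears stalled TOP1, -0.19 ± 0.20 and TOP3A -0.09 ± 0.20, each within its error of 0. TOP3B had 0.26 ± 0.21.

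**Figure D4:**
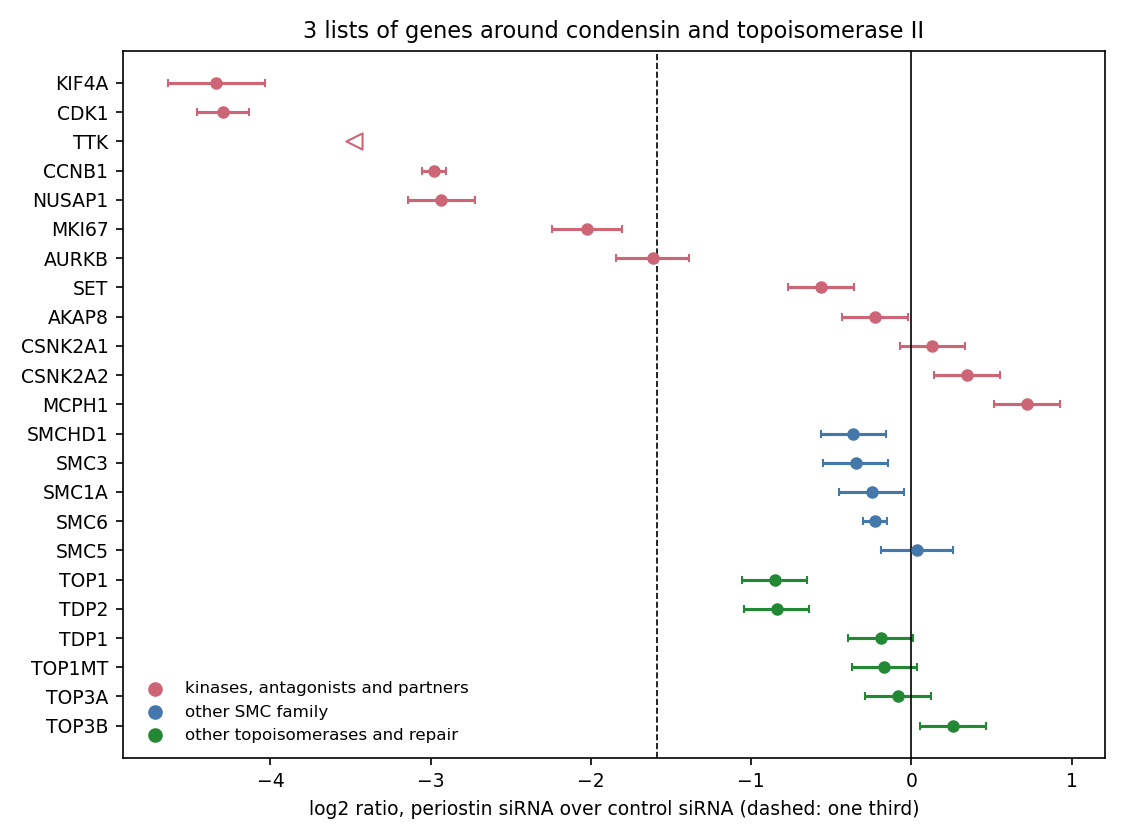
log2 ratio of periostin siRNA over control siRNA for the measured genes of 3 lists, with bars for the SD over 10 spots (CDK1, CCNB1, SMC6) or the propagated error of 1 spot, and an arrowhead for the bound of TTK at -3.48. The dashed line marks a 3-fold difference, with 7 genes of the first list beyond it and none of the others.

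The sizes moved by different amounts with the processing. Over 10 settings of background, scaling and probes, the log2 ratio of NCAPD2 ran from -0.36 to -0.18, that of SMC4 from -0.81 to -0.64 and that of NCAPH2 from -0.20 to 0.0032, all bright on both arrays. TOP2A, dim with periostin siRNA, ran from -4.37 to -2.46. The bound of NCAPG ran from -2.53 to -0.69 in the 9 settings that gave it a ratio. The highest value of each was that with normexp. SMC2 ran from -1.64, with its 2 probes averaged, to -0.94 with normexp. Among condensin genes the only value above 0 in these settings was that of NCAPH2 with its 3 probes averaged, 0.0032.

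**Figure D5:**
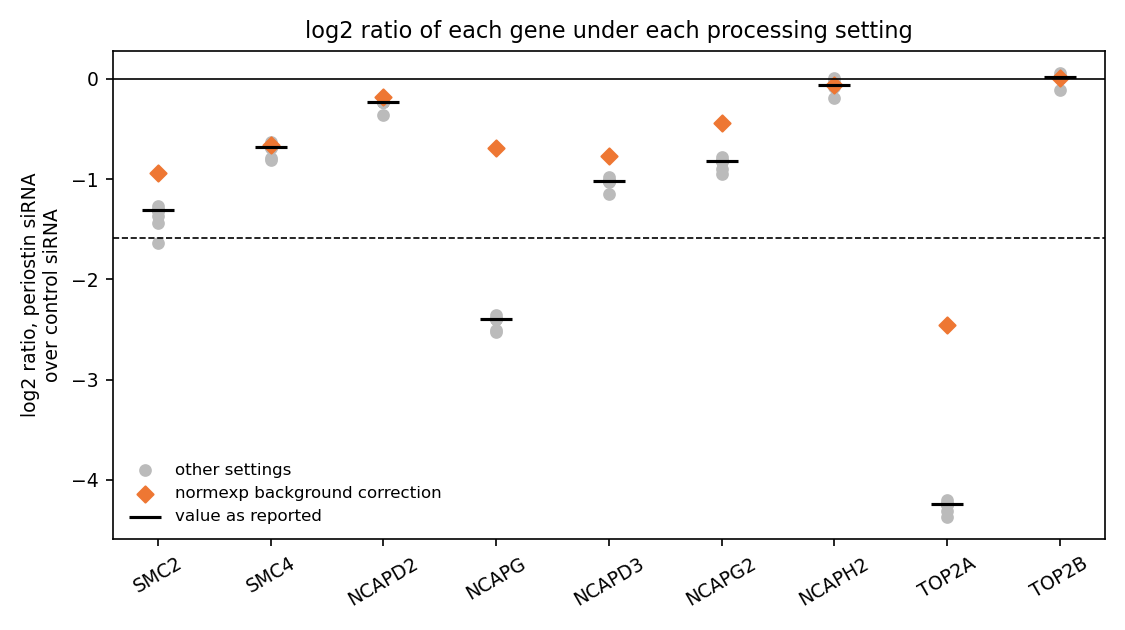
log2 ratio of the 9 genes with a ratio as reported (bars), with the normexp background correction (diamonds) and under the other settings (grey), with the dashed line at a 3-fold difference. With normexp TOP2A moves from -4.24 to -2.46 and the bound of NCAPG from -2.40 to -0.69, whereas NCAPD2, NCAPH2 and TOP2B stay near 0.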

How the data were processed

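RNA of MRC-5 cells was measured on 1 Agilent single-colour array for each of 2 conditions. The authors deposited scanner files with spot intensity values that Feature Extraction (11.5.1.1 in the file headers, 12.0.3.1 in the submitters' processing notes) had background-subtracted and detrended, and a normalized intensity table, which equals those values times 1 factor per array (3.65 and 3.54) within 0.1% for 100% of the 49697 probes printed once. Arrays were designed on hg19.

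Control spots were dropped, log2 intensity values were shifted to a common 75th percentile, spots of a probe were averaged, and the brightest probe by mean log2 stood for a gene. Genes were named by RefSeq accession (GRCh38.p14, used for names and promoter letters), which gave 38222 spots and 21743 genes. Where a probe was well above background on 1 array only, the ratio is a bound, taken on the dim array against the probe's own signal or that array's detection floor, whichever was higher (lowest signal called well above background, 7.55 with control siRNA, 7.77 with periostin siRNA, scaled). All members, and all genes of 3 further lists apart from 1 that is not reported here and not counted, are covered. Members and lists were chosen with earlier results of these data known. Steps were tested on simulated data, with changes put only into genes above the 75th percentile of signal. Bounds and the loss of dim signals were not covered by that test. Python 3.11.15, numpy 2.4.6, pandas 2.3.3, R 4.3.3 and limma 3.58.1 were used. Precision is limited by the number of arrays. The alternatives were normexp, 4 other scalings, the deposited table, the mean over probes, filters on dim and on outlier spots, and thresholds of 2-fold and 4-fold. Protein sequences were not analysed here.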

Additional observations from a re-analysis of the deposited data

How the results depend on the processing

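No paired analysis was possible because there is a single array of either kind, and none could be left out. The normexp correction, whose offset pulls dim ratios towards 0 by construction, moved most values. It gave log2 ratios of -0.94 for SMC2, -0.69 for NCAPG (a bound), -0.77 for NCAPD3, -0.44 for NCAPG2 and -2.46 for TOP2A. It gave medians of -0.44 for condensin I and -0.44 for condensin II, with a difference of 0.0078 against -0.49 as reported. It also gave a TOP2A minus TOP2B difference of -2.46. It left 1 member lower by more than 3-fold, and 190 lower and 143 higher named genes against 441 and 541, with 42.9% of those calls higher against 55.1%. With only probes well above background on both arrays the NCAPG bound dropped out, so that condensin I was at -0.23, the difference of the medians at 0.59 and 1 member past 3-fold. Averaging over probes put SMC2 at -1.64, past 3-fold. TOP2B was at -0.11 under scaling on the median, which put the all-gene median lower (a shift of -0.13), and at 0.058 without scaling. At 2-fold 4 members, and 1031 lower and 1279 higher genes, were past the threshold, and at 4-fold 274 lower and 278 higher genes. Of 160 values under an alternative, 137 stayed within the spot error or within 1.5 times the reported count. This tally is no measure of robustness, since many of these values could hardly move. The deposited table is the same signals times 1 factor per array, and a difference between log2 ratios is untouched by such a factor. Among the members the filter on outlier spots could alter TOP2A alone.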

Other observations

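Probes of some partner genes gave unlike sizes, which were read as values alone. The log2 ratio of periostin siRNA over control siRNA was -4.34 for the brighter KIF4A probe and -2.80 for the other, and it lay between -2.51 and -1.52 over the 3 MKI67 probes. For CCNB1 the probe printed 10 times gave -2.98 and the other -2.15. Over the 3 SMC1A probes it lay between -0.25 and 0.05, and over the 2 TOP1 probes between -0.85 and -0.68.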
